A study of Mus musculus with 2 samples.

Results

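Pdcd1-positive CD8 T cells are tumour T cells that carry the CD8 co-receptor and transcripts of Pdcd1, the gene of the inhibitory receptor PD-1. They were chosen by their molecule counts. A cell was kept with at least 2 molecules summed over Cd3d, Cd3e and Cd3g and at least 2 summed over Cd8a and Cd8b1. It also had 0 of Cd4 and at most 1 summed over C1qa and C1qb. Under 10% of its molecules came from S100a8, and at least 2 were of Pdcd1. This rule kept 157 of 12018 cells. Another 99 cells passed every gate but that on Pdcd1 and are called Pdcd1-low CD8 T cells here.

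The cells came from 4T1 tumours, a mouse mammary carcinoma line grown in the mammary fat pad of female BALB/c mice of 8 weeks. Tumours grew for 7 days, to about 70 mm3, before the mice were split into 4 arms of 6 mice: isotype control antibody, antibody to Siglec-E (an inhibitory sialic acid receptor of myeloid cells), antibody to PD-1, or both antibodies. From each arm 2 tumours were dissociated, and cells with EPCAM were mixed 1 to 4 with cells lacking it, so shares of all cells refer to that mixture. Each of the 2 samples is a cartridge with 2 arms under sample tags: isotype control and anti-Siglec-E under tags 1 and 2 (the no-anti-PD-1 pool), anti-PD-1 and the combination under tags 3 and 4 (the anti-PD-1 pool). Which arm within its pool carried which tag is not stated in the labels, and tags are therefore named by number. Tumours of an arm were not told apart, tags are not replicates, and with 1 sample per pool no test could be made. Each pool is also 1 cartridge, so a difference between pools cannot be told apart from one between cartridges. All comparisons are descriptions of these libraries.

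PD-1 is induced on T cells by antigen and restrains signalling from the T cell receptor when its ligands bind. In tumours, CD8 T cells under lasting antigen often keep PD-1 together with other inhibitory receptors such as CTLA-4, TIM-3 and TIGIT. Such cells range from progenitor-like cells with the transcription factor TCF1 (gene Tcf7), which can renew, to cells with effector granules and little capacity to renew. The mouse genes of PD-1 (chromosome 1, 94038305 to 94052553, minus strand), TIM-3 (Havcr2, chromosome 11, 46454935 to 46481255, plus strand) and TCF1 (Tcf7, chromosome 11, 52252371 to 52282571, minus strand) are given by the span of the panel's transcript in GENCODE M21 on GRCm38.

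The panel counts molecules of chosen transcripts, not of all genes. Levels are molecules summed over the cells of a class and tag, divided by all molecules of the 396 genes shared by the 4 tables and multiplied by 1000000 (CPM). Each target has its own primers, so CPM is compared between cells and not between genes. The members numbered 10, 9, 87 and 51 in tags 1 to 4 and held 27527, 23902, 131301 and 100194 molecules. Their median was 1336 molecules per cell, against 747 in Pdcd1-low CD8 T cells and 1278 in neutrophils, the 5149 cells with at least 10% of molecules from S100a8 and no Cd3 gene. The neutrophils serve as the class that should lack T cell genes. A deeper cell more readily reaches 2 Pdcd1 molecules and more readily has a molecule of any gene. Shares of cells with a gene are therefore given also after each cell was thinned to 500 molecules. This kept 154 members and 78 Pdcd1-low cells and left out 3 and 21. In these shares the classes stayed as sorted at full depth, so thinning evens out detection but not the part of depth in the sorting. No cell barcode was shared between tags of a cartridge or between members of any tags, and from 2 to 16 were shared by pairs of tags across cartridges. All intervals are 95% and cover counting error only.

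The markers given for the class were present. Cd8a was detected in 157 of 157 members and Cd8b1 in 156 of 157, both used by the rule. Gzmb, the protease granzyme B, was detected in 131 of 157 (83.4%, against 1.96% of neutrophils) and Tigit in 143 of 157 (91.1%, against 1.22%). Of the T cell receptor genes that the rule did not use, Trbc2 was in every member, Trac in 153 of 157 members, and the gamma delta chain gene Trdc was at 0 molecules in all of them. The B cell genes Ms4a1, Cd22, Pax5 and Jchain were also at 0, as were Il17a and Il23r.

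A small set of members stood apart and bears on several results. In 12 members, called the set-apart members here, at least 5% of molecules came from 4 myeloid genes (Lyz2, Cd14, Arg1, Cxcl2) or 2 mast cell and basophil genes (Cpa3, Fcer1a). This limit was set after the data were seen. The other 145 members reached at most 3.26%. Tags 1 to 4 held 0, 1, 6 and 5 of the 12. Their median was 3904.5 molecules, against 1285 for the others, and they held 19.3% of all molecules of members. Of genes that did not choose them, they held 95.5% of the members' Il1a molecules, 97.1% of Cxcl1 and 96.6% of Mmp12. The set-apart member of tag 2 had 9866 molecules, 41.3% of that tag's total, with all of the tag's Cpa3 (369 molecules), Fcer1a (274) and Il6 (126) beside 98 molecules of Cd3g, 64 of Cd8a and 55 of Pdcd1. Results are therefore given with and without the set-apart members. Among Pdcd1-low cells 10 met the same limit. Whether a barcode held more than 1 cell was not tested.

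**Figure D1:**
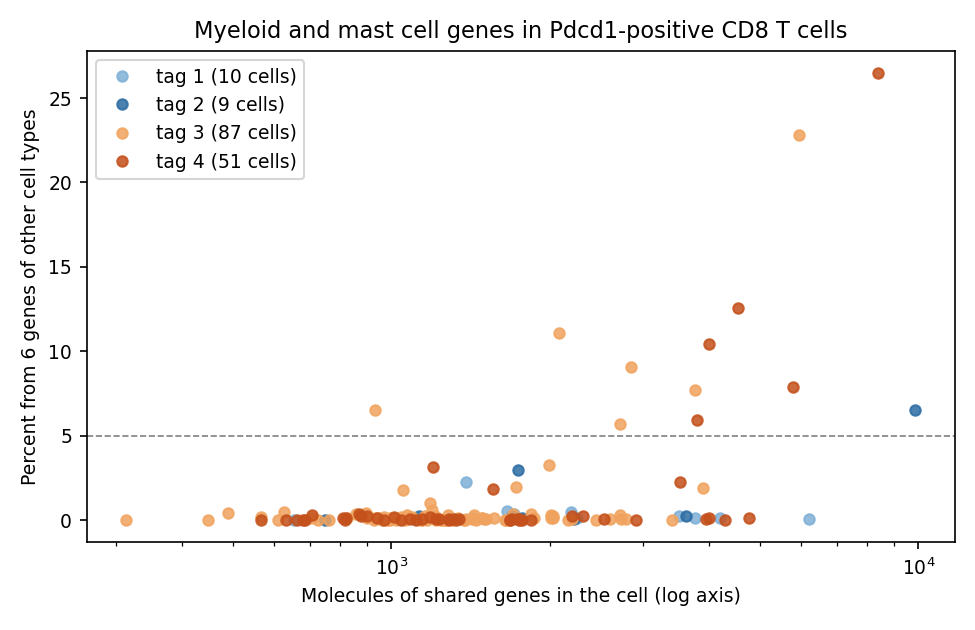
Each point is 1 Pdcd1-positive CD8 T cell: its molecules of shared genes (log axis) against the percent of them from Lyz2, Cd14, Arg1, Cxcl2, Cpa3 and Fcer1a, coloured by tag. The 12 cells above the dashed line at 5% came from tags 2, 3 and 4 and were mostly among the deeper cells, with a median of 3904.5 molecules.

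The gates removed cells step by step. Of 1758 cells with Cd3 genes, 357 had at least 2 molecules of Cd8a and Cd8b1, 303 of these had no Cd4, 284 had at most 1 C1q molecule, 256 were under the S100a8 limit, and 157 had at least 2 molecules of Pdcd1. Cells near the Pdcd1 limit form a range without a gap: 82 gated cells had 0 molecules, 17 had 1, 18 had 2, 58 had 3 to 9 and 81 had 10 or more. The median depth of the 18 cells just inside the limit was 801.5 molecules and that of the 17 just outside 800.

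Summed over tags, these neighbours of the limit differed in several genes despite their like depth. Summed over the 18 cells with 2 Pdcd1 molecules, Gzmb stood at 32016 CPM, against 12324 in the 17 cells with 1. Havcr2 stood at 1835 against 212, and Nkg7, a protein of cytotoxic granules, at 29293 against 16078. In the other direction Tcf7 stood at 1775 against 4745 and Ccr7, the homing receptor for lymph nodes, at 828 against 5737. Tag 3 had all these directions, on 10 and 12 cells. Tag 4, on 7 and 3 cells, had that of Havcr2 alone. Its Gzmb stood at 22492 against 25342.5, Nkg7 at 31105 against 32877, and Tcf7 and Ccr7 at 1276 against 0. Tag 1 had no cell with 1 molecule, and its 1 cell with 2 had 106296 CPM of Gzmb. Tag 2 had no cell with 2. Summed over tags, Tcf7 and Ccr7 were lowest in the 81 cells with 10 or more Pdcd1 molecules, at 69.9 CPM of Tcf7 and 468 of Ccr7. Ccl5, a chemokine of memory and effector T cells, also went down along the range in tag 3, at 96474, 81514, 59974, 40545 and 30646 CPM from 0 to 10 or more Pdcd1 molecules. In tag 4, at 34889.6, 51369.9, 98899, 33307 and 14342 CPM, it had no steady order on steps of 16, 3, 7, 20 and 24 cells, and tags 1 and 2 held too few cells for most steps. Tigit, at 2823, 1133, 3609.9, 4087 and 3182 CPM from 0 to 10 or more, had no steady order.

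Members made up 0.412% of all cells in tag 1 (interval 0.198 to 0.755%), 0.594% in tag 2 (0.272 to 1.12%), 1.31% in tag 3 (1.05 to 1.62%) and 3.51% in tag 4 (2.62 to 4.59%). Both tags of the anti-PD-1 pool thus lay above both others, and tag 4 lay above tag 3 beyond counting error. The mean of the 2 tags was 2.41% in the anti-PD-1 pool and 0.503% in the other, a ratio of 4.80. Without tag 4 the ratio was 2.61. The interval of tag 2 reaches slightly into that of tag 3, and such overlap alone does not decide whether these neighbours differ beyond counting error. Pdcd1-low CD8 T cells, at 0.370, 0.462, 0.967 and 1.31% of all cells in tags 1 to 4, were also higher in both tags of the anti-PD-1 pool. So were Foxp3-positive CD4 T cells, at 0.535, 0.660, 0.831 and 2.06%, while neutrophils, at 43.2, 43.5, 44.1 and 35.7%, had no order of pools. Pool and cartridge cannot be told apart in these shares.

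The Pdcd1-positive share of gated CD8 T cells was 52.6% in tag 1 (10 of 19 cells), 56.25% in tag 2 (9 of 16), 57.6% in tag 3 (87 of 151) and 72.9% in tag 4 (51 of 70). The intervals, 28.9 to 75.6%, 29.9 to 80.2%, 49.3 to 65.6% and 60.9 to 82.8%, all overlap. After thinning, with the limit kept at 2 molecules, the shares were 50, 37.5, 52.6 and 63.9%. A difference between pools in this share was not detectable at these cell numbers. Pdcd1 within members stood at 11988, 7656, 9505 and 8224 CPM in tags 1 to 4, with no order of pools.

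**Figure D2:**
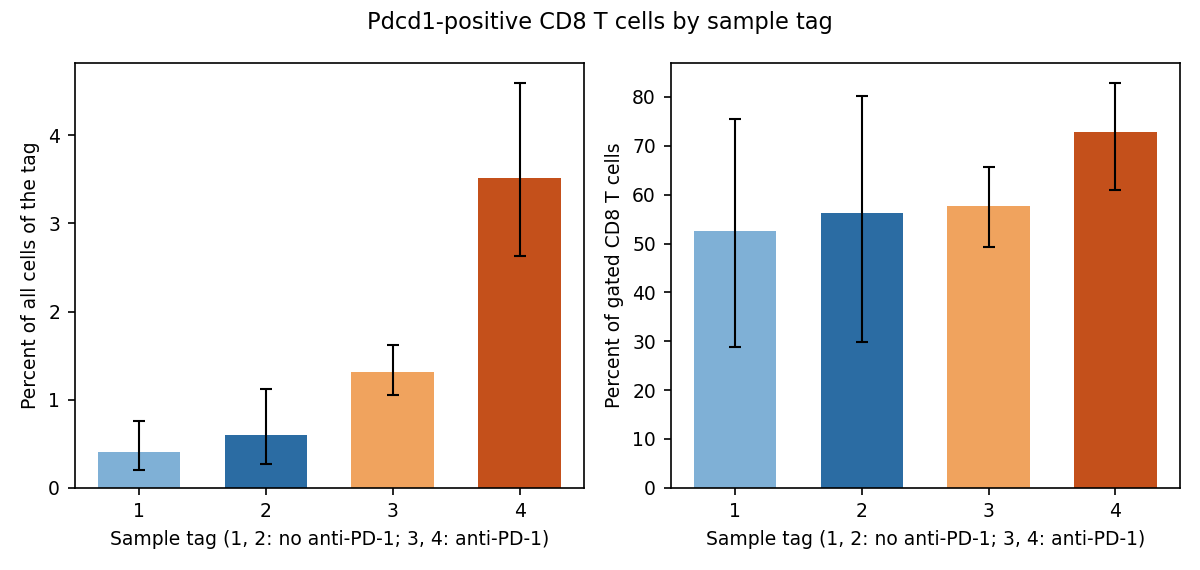
Bars give Pdcd1-positive CD8 T cells as percent of all cells (left) and of gated CD8 T cells (right) in each tag, with exact 95% binomial intervals. The share of all cells runs from 0.412% in tag 1 to 3.51% in tag 4, while the 4 intervals on the right overlap.

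By equal-weight mean over tags, the 20 genes with the highest CPM in members were H2-K1, Lgals1, Gapdh, Gzmb, Fth1, Rgs1, Nkg7, Thy1, Cd52, Btg1, Gzma, Ccl5, Trbc2, Ctsd, S100a10, Cd3g, Cd8a, Ifitm2, Cd8b1 and Cxcl2. Pdcd1 itself was at position 24. The class I antigen-presentation gene H2-K1 (mean 125507 CPM), Gapdh, Nkg7, Thy1, Cd52 and Btg1 were detected in all 157 members. Gzma and Cxcl2 owe their place to few cells: the 16 members with most of each held 87.6% of Gzma molecules and 96.6% of Cxcl2. For H2-K1 the corresponding share was 20.5%.

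Comparing members with Pdcd1-low CD8 T cells of the same tag, 17 of 262 genes were at least 1.5-fold higher in every tag (6.49%) and 18 were at least 1.5-fold lower in every tag (6.87%). With TMM scaling these were 21 and 14, so that 60% of the calls were higher in place of 48.6%. Sorted on thinned counts, 8 were higher and 9 lower, with 5 of each among the original calls. A gene entered with at least 30 molecules over the 8 sums, Pdcd1 was left out, and a sum of 0 was set to 3 counts and never taken as the higher. These genes are called higher or lower below. Since Pdcd1 sorted the cells, the counts describe the division and support nothing. Without the set-apart cells of both classes, 15 of 239 genes were called higher (6.28%) and 12 lower (5.02%), and 11 and 10 of the original calls were among them. The Pdcd1-low class is small in tags 1 and 2, with 9 and 7 cells, and its deepest cell held 39.3% of the class's molecules in tag 1 and 30.2% in tag 2. In tag 1 this cell had 4900 molecules, of which 17.9% came from the 4 tumour or epithelial genes and 0.571% from T cell receptor and lineage genes. The Pdcd1-low class of tag 1 accordingly held 100120 CPM of the former with this cell and 49241 without it, and 59158 and 93729 CPM of the latter, where tags 2 to 4 held 116436, 113269 and 120516. Without the deepest Pdcd1-low cell of tags 1 and 2, 18 of 261 genes were called higher (6.9%) and 25 lower (9.58%), with 14 and 18 of the original calls among them. Aurkb and H2-Eb1 were then no longer called, and Cxcr6 and Mki67 (higher) and Il7r (lower) were.

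**Figure D3:**
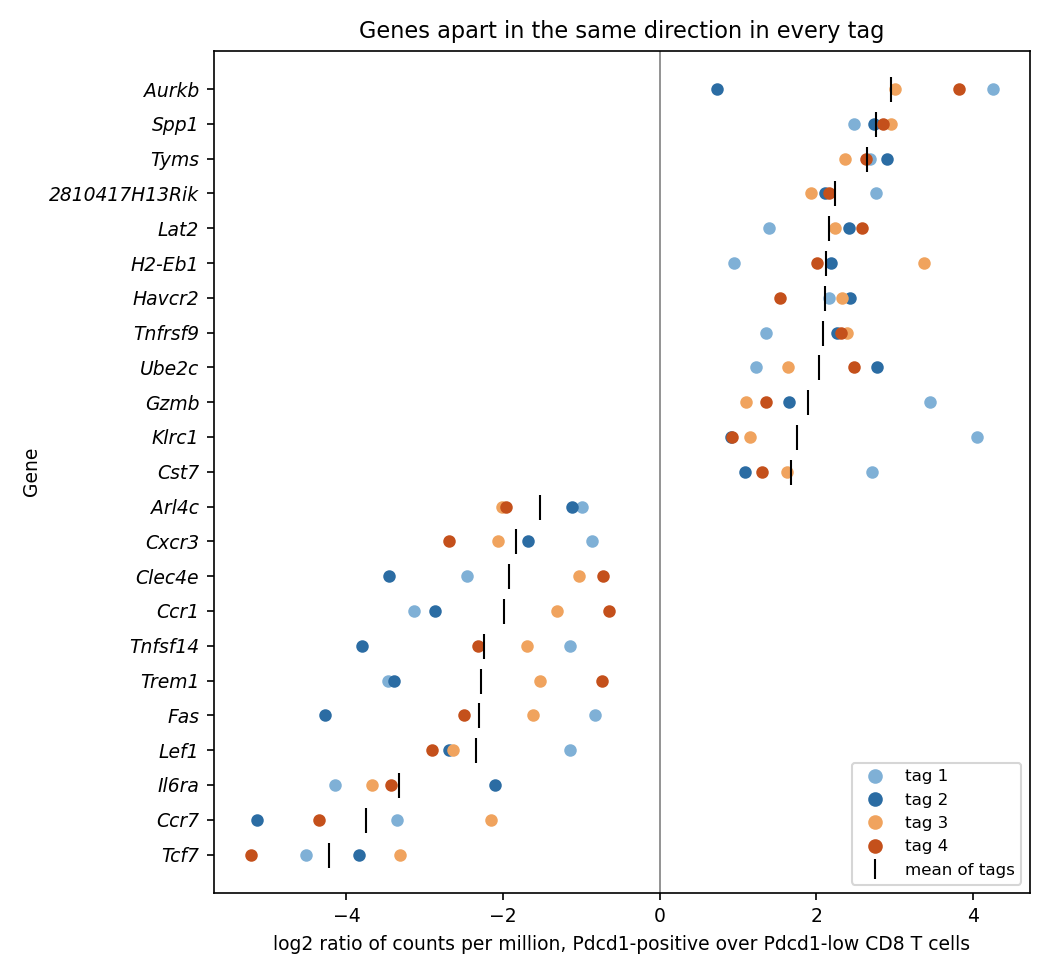
Points are log2 ratios of CPM, Pdcd1-positive over Pdcd1-low CD8 T cells, in each tag, and the black mark is their mean, for the 12 genes with the largest called ratios above 0 and 11 of the 12 below 0. Tcf7, with a mean of -4.22, and Ccr7, with -3.75, lie farthest to the left. The tags spread widely for Aurkb, Klrc1 and Fas.

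Among inhibitory receptor genes beside Pdcd1, Havcr2 and Klrc1 were called higher in members. These were 2 of 7 measured, with 0 lower (all 262 genes: 6.49% higher, 6.87% lower). The median of the 7 mean log2 ratios was 1.14, against -0.08 over all genes measured. Havcr2, encoding the receptor TIM-3, stood at 2869.9, 2176, 1858 and 2176 CPM in members of tags 1 to 4 and at 641, 0, 369 and 750.4 in Pdcd1-low cells. All 4 levels of members thus lay above all 4 of the low cells, with a mean log2 ratio of 2.12, a lower bound since tag 2 of the low cells held 0 molecules. Its intervals in members were 2272 to 3577, 1625 to 2853, 1632 to 2107 and 1897 to 2485 CPM. The gene was called higher under all 13 alternatives tried.

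Klrc1, which encodes the inhibitory receptor NKG2A, stood at 13296, 6066, 8423 and 7376 CPM in members and at 802, 3231, 3781 and 3902 in Pdcd1-low cells. Its ratio was far larger in tag 1 (log2 4.05) than in tags 2 to 4 (0.91, 1.16 and 0.92). After thinning it was detected in 91.6% (141 of 154 cells, interval 86.0 to 95.4%) of members and in 60.3% (47 of 78 cells, interval 48.5 to 71.2%) of Pdcd1-low cells, against 0.102% of neutrophils, so most cells of either class had the transcript. Without the deepest Pdcd1-low cell of tag 1, that tag's level in Pdcd1-low cells was 1320.1 CPM and the log2 ratio 3.33. On thinned cells the gene was not called, at the 1.5-fold limit in every tag.

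Ctla4, the gene of an inhibitory receptor that competes for CD28 ligands, stood at 6829.7, 7322, 5750.1 and 5389.5 CPM in members and 2806, 3499.8, 4685 and 3452 in Pdcd1-low cells. Every tag had the higher level in members, but tag 3 fell short of 1.5-fold and the gene was not called. Entpd1, encoding the ectonucleotidase CD39, stood at 2688, 1381, 2346 and 2655 CPM against 321, 1077, 1605 and 1126. Tag 2 fell short there, and without the set-apart cells Entpd1 was called higher, with a mean log2 ratio of 2.41. It is no T cell gene alone, since 90.0% of neutrophils had a molecule of it, more than the 82.2% of members, so a share of cells with Entpd1 cannot be read as expression.

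Tigit, a receptor for nectin-like ligands, was little apart between the classes, with 1780.1, 2092, 4113 and 3403 CPM in members and 1603, 1211, 3025 and 2251 in Pdcd1-low cells. Lag3 gave only 2 molecules in all members, Btla 6 and Cd160 22, too few to compare. Cd200, encoding an inhibitory surface ligand, was detected after thinning in 16.9% (26 of 154 cells, interval 11.3 to 23.8%) of members and in 3 of 78 Pdcd1-low cells (3.85%, interval up to 10.8%).

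**Figure D4:**
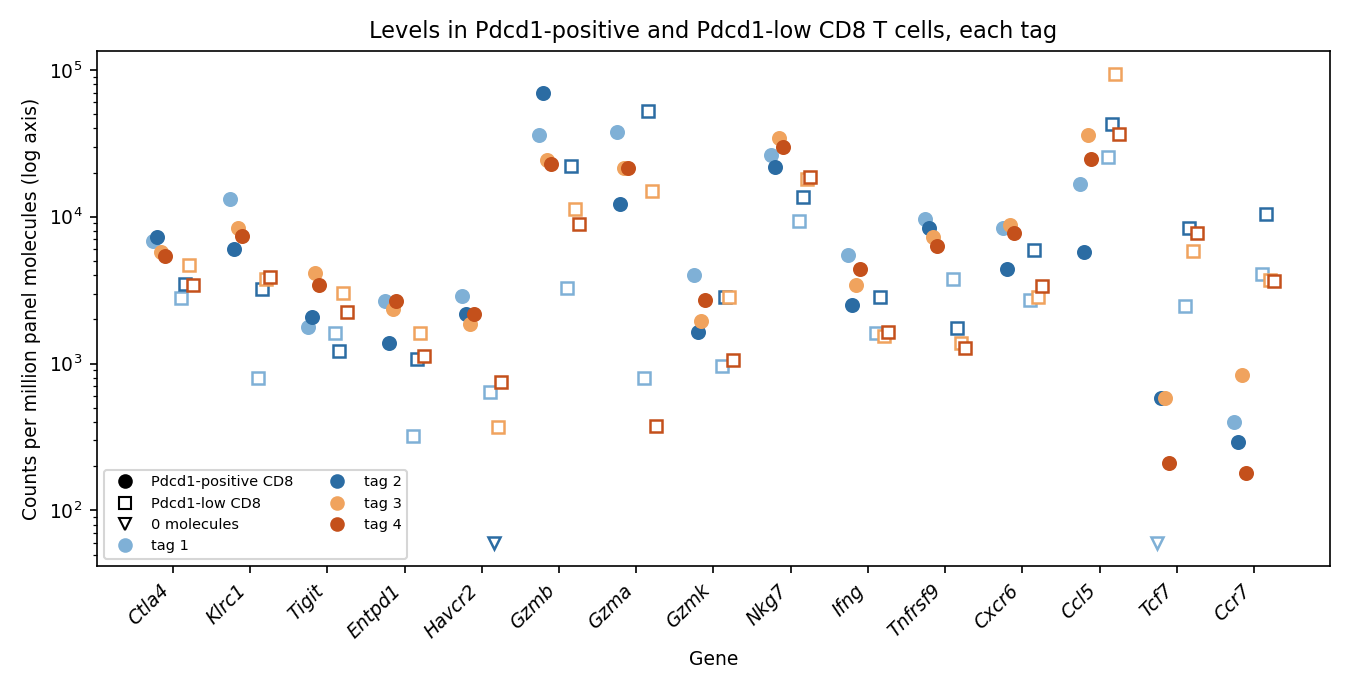
Levels in CPM (log axis) of 15 genes in Pdcd1-positive (filled circles) and Pdcd1-low (open squares) CD8 T cells, with 1 symbol per tag and a triangle at the bottom for 0 molecules. All circles lie above all squares for Havcr2 and Tnfrsf9 and below them for Tcf7 and Ccr7, and the symbols of Gzma, Gzmk and Ctla4 are less far apart or overlap.

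Counting how many of Ctla4, Havcr2, Tigit and Klrc1 a cell had at 500 molecules, members had a median of 3 and Pdcd1-low cells of 2. At least 3 were found in 106 of 154 members (68.8%) and in 27 of 78 Pdcd1-low cells (34.6%). By tag, 70, 55.6, 67.9 and 72.5% of members had at least 3, against 25, 14.3, 37.7 and 40% of Pdcd1-low cells, so the order of the classes was the same in each tag. At full depth the shares were 141 of 157 (89.8%) and 36 of 99 (36.4%), and 92 members had all 4 genes. Entpd1 was left out of this count because of its share in neutrophils. Among the 154 thinned members, Ctla4 and Tigit were together in 91, where independent detection would give 90.5.

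**Figure D5:**
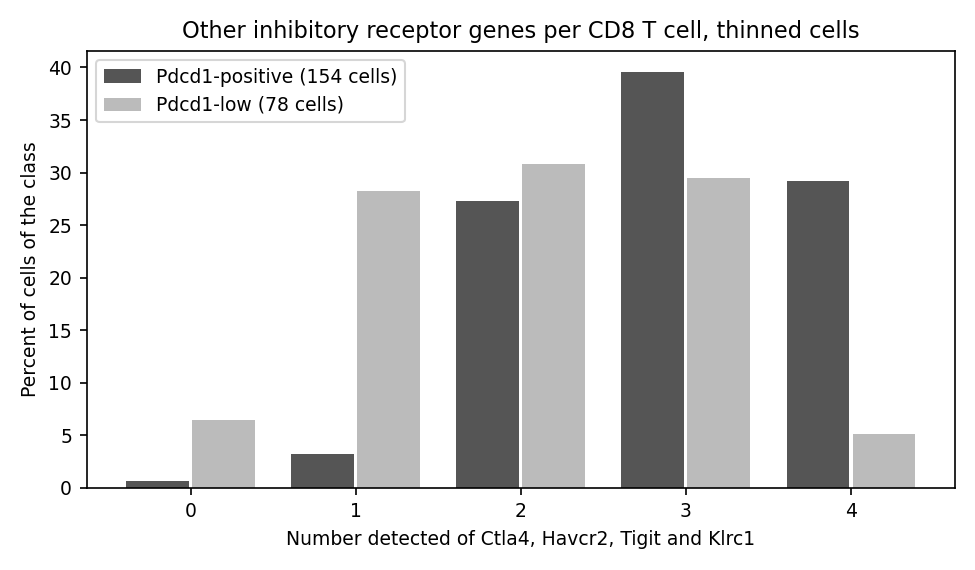
Bars give the percent of cells with 0 to 4 of the genes Ctla4, Havcr2, Tigit and Klrc1 detected after thinning to 500 molecules, in 154 Pdcd1-positive and 78 Pdcd1-low CD8 T cells. The commonest number is 3 in the first class and 2 in the second.

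Of 10 measured genes of killing, 2 were called higher in members, Gzmb and Nkg7, and 0 lower (all 262 genes: 6.49% and 6.87%). The median log2 ratio of the 10 was 0.70. Gzmb stood at 35928, 69743, 24219 and 22946 CPM in members of tags 1 to 4 and at 3287, 22210.3, 11307 and 8929.9 in Pdcd1-low cells. The level in tag 2 rests in part on the set-apart member, which held 47.7% of that tag's Gzmb. Without the set-apart members the levels were 35928, 62126, 26475 and 27404, and tag 2 was still the highest. Gzmb was called higher in 12 of 13 alternatives, and not when the classes were sorted on thinned counts. Nkg7 stood at 26301, 21923, 34189 and 30002 CPM against 9379, 13730, 17984 and 18610.2, with little spread between tags. Cst7, encoding the granule protease inhibitor cystatin F, was also called higher, at 2616, 3431, 3252 and 2964 CPM against 401, 1615, 1051 and 1201. Its call, too, was lost when the classes were sorted on thinned counts.

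Granzyme A and granzyme B genes differed in how many members carried them. Gzma, which encodes a tryptase-like granzyme, was detected in 47 of 157 members (29.9%, against 1.28% of neutrophils), and 45 of these also had Gzmb. In those 47 cells Gzma reached 67781 CPM, so its summed levels of 37781, 12217, 21538 and 21498 CPM rest on few cells. Pdcd1-low cells had 802, 52632, 14922 and 375 CPM, without an order between the classes. The 47 Gzma-positive members were 4, 4, 27 and 12 cells in tags 1 to 4. They carried Gzmb at 44765 CPM, against 20894 in the 110 others, and their median depth of 1375 molecules was close to the 1320.5 of the others.

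Gzmk, a granzyme typical of memory-like CD8 T cells, stood at 4032, 1632, 1949.7 and 2705 CPM in members and 962, 2827, 2822 and 1051 in Pdcd1-low cells. After thinning it was detected in 47.4% (73 of 154 cells, interval 39.3 to 55.6%) of members and 42.3% (33 of 78 cells, interval 31.2 to 54.0%) of Pdcd1-low cells, so the classes were not apart in this share beyond counting error. Perforin, Prf1, which forms pores in target membranes, was sparse on this panel, with 82 molecules in 37 members. The cathepsin gene Ctsw had no common direction, at 8137, 7154, 7647 and 6098 CPM against 2966, 9288, 8282 and 10506. Fasl and Klrk1, encoding the death ligand and the activating receptor NKG2D, were detected in 89 and 115 members and were not called.

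Among cytokines, Ifng was the one found in most members. It stood at 5522, 2510.2, 3435 and 4382 CPM in members and 1603, 2827, 1531 and 1651 in Pdcd1-low cells, and tag 2 alone had the lower level in members. After thinning it was detected in 62.3% (96 of 154 cells, interval 54.2 to 70.0%) of members and 42.3% (33 of 78 cells, interval 31.2 to 54.0%) of Pdcd1-low cells. Without the set-apart cells it was called higher, with a mean log2 ratio of 1.26. Tnf stood at 872, 920.4, 708 and 1856 CPM in members, yet 68.0% of neutrophils had a Tnf molecule, more than the 42.7% of members. Il2 and Il21, cytokines of helper and early effector T cells, were at 0 molecules in all 157 members. Tnfsf14 (LIGHT) was the 1 of 5 measured cytokine genes called lower, with 0 higher (all 262 genes: 6.87% lower, 6.49% higher). The median log2 ratio of the 5 was 0.53.

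Chemokine genes gave no call in either direction among 7 measured, with a median log2 ratio of 0.23. Ccl5 stood at 16784, 5732, 36283 and 24582 CPM in members and 25411, 42671, 93478 and 36695 in Pdcd1-low cells. Each tag had the lower level in members, with a mean log2 ratio of -1.36, but tag 4 (-0.58) fell just short of the limit and the gene was not called. The chemokine genes Ccl3 and Ccl4 are also neutrophil genes here, detected in 82.3 and 45.6% of neutrophils. Xcl1, which attracts cross-presenting dendritic cells, stood at 5667, 9957, 967 and 729 CPM, and in tags 1 and 2 a single member held 85.9 and 99.2% of it.

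Homing genes were lower in members for 4 of 12 measured chemokine receptor and integrin genes and higher for none, with a median log2 ratio of -0.52. Ccr7 stood at 399.6, 293, 830.2 and 179.7 CPM in members and 4088, 10365, 3689 and 3677 in Pdcd1-low cells, with a mean log2 ratio of -3.75. A single member held 39.3% of its 145 molecules. Cxcr3, the receptor for interferon-induced chemokines, stood at 618, 586, 571 and 359 CPM against 1122, 1885, 2398 and 2326. Its call was lost at a 2-fold limit, on thinned cells and on cells sorted after thinning. Cxcr4 was also called lower, and 83.8% of neutrophils had a molecule of it.

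Cxcr6, the receptor for CXCL16 found on resident T cells, went the other way in 3 of 4 tags. It stood at 8428, 4393, 8781 and 7745 CPM in members and 2725, 5923, 2822 and 3377 in Pdcd1-low cells, and tag 2 was the exception. After thinning it was detected in 89.0% (137 of 154 cells, interval 82.9 to 93.4%) of members and 52.6% (41 of 78 cells, interval 40.9 to 64.0%) of Pdcd1-low cells, against 0.123% of neutrophils. Itgae, encoding the CD103 chain of tissue-resident cells, was found in 19 of 157 members only.

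Costimulation genes were higher for 2 of 11 measured and lower for none, with a median log2 ratio of 0.54. Tnfrsf9, encoding the receptor 4-1BB that is induced by antigen, stood at 9627, 8409, 7235 and 6338 CPM in members and 3768, 1749.9, 1383 and 1276 in Pdcd1-low cells. All members' levels lay above those of the low cells, and the call held under all 13 alternatives, some of which could not lose it. After thinning it was detected in 77.9% (120 of 154 cells, interval 70.5 to 84.2%) of members and 24.4% (19 of 78 cells, interval 15.3 to 35.4%) of Pdcd1-low cells. Cd38, an ectoenzyme, was at 1562, 628, 1219 and 1088 CPM against 401, 135, 553 and 675 and was not called without the set-apart cells. Icos stood at 4577, 1757, 2658 and 3074 CPM and Tnfrsf18 (GITR) at 2325, 2887, 2232 and 2455 in members, and neither was called.

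Of 11 measured cytokine receptor genes, 0 were called higher and 2, Il4ra and Il6ra, lower (all 262 genes: 6.49% and 6.87%). The median log2 ratio of the 11 was -0.09. Il2rb, the beta chain that carries signals of interleukins 2 and 15, stood at 10753, 5564, 7189.6 and 7256 CPM in members and 3447, 3769, 4353 and 3602 in Pdcd1-low cells, and was called higher without the set-apart cells (mean log2 ratio 1.05) but not with them. Il7r, which supports survival of naive and memory cells, stood at 618, 209, 579 and 599 CPM against 641, 2154, 1476 and 1501. Tag 1 had almost the same Il7r level in both classes, and the gene was not called.

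Naive and memory genes were called lower for 4 of 7 measured, Tcf7, Ccr7 and Lef1 among them, and higher for none. Over all 262 genes 6.87% were called lower and 6.49% higher. The median log2 ratio of the 7 was -2.34. Tcf7 stood at 0, 586, 586 and 209.6 CPM in members and 2485, 8346, 5847 and 7804 in Pdcd1-low cells. The mean log2 ratio of -4.22 is a bound, since tag 1 of the members held 0 molecules, which allows up to 109 CPM by 3 counts. After thinning it was detected in 9.09% (14 of 154 cells, interval 5.06 to 14.8%) of members and 64.1% (50 of 78 cells, interval 52.4 to 74.7%) of Pdcd1-low cells, against 0.327% of neutrophils. Lef1, the related factor, stood at 109, 0, 122 and 159.7 CPM against 240.5, 808, 756 and 1201. Tcf7 and Ccr7 were called lower under all 13 alternatives, some of which could not lose a call. Lef1 was not called after thinning.

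The 20 members with a Tcf7 molecule were 0, 3, 13 and 4 cells in tags 1 to 4. They carried Ccr7 at 4451 CPM, against 162 in the 137 others, and Havcr2 at 259 against 2259.6. Ccr7 was detected in 8 of the 20 and 15 of the 137, and 1 member of tag 3 held 52.3% of that tag's Ccr7. Summed Gzmb differed little, at 30854 and 28566 CPM, but it was detected in 12 of the 20 and 119 of the 137. The median depths were 1048 and 1385 molecules. At 500 molecules 9 cells had both Gzmb and Tcf7, where independent detection would give 10. Ctla4 was at 8038 and 5666 CPM. At 500 molecules, 14 members had Tcf7 and 74 had Havcr2, and 1 cell had both, where independent detection would give 6.73. Tcf7 and Ccr7 were together in 5 cells, where it would give 1.36. These cells are few and come mostly from tag 3.

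Of 12 measured fate transcription factors, Irf8 was called higher and Tcf7 and Lef1 lower (all 262 genes: 6.49% and 6.87%). The median log2 ratio of the 12 was -0.66. Irf8, an interferon regulatory factor best known from myeloid and B cells, stood at 2507, 2259, 2216 and 1986 CPM in members and 481, 0, 1162 and 1051 in Pdcd1-low cells, and was found in 105 of 157 members against 2.70% of neutrophils. It was called higher without the set-apart cells too. Tbx21, encoding T-bet, stood at 1162, 1757, 1059 and 1258 CPM and Eomes, its relative, at 545, 544, 487 and 269 in members, and neither was called. Ikzf2 (Helios) was detected after thinning in 14.3% (22 of 154 cells, interval 9.17 to 20.8%) of members and in 5.13% (4 of 78 cells, interval 1.41 to 12.6%) of Pdcd1-low cells, and the intervals overlap.

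Tox, a factor that maintains PD-1-positive T cells under lasting antigen, was counted in tags 2 to 4 alone. It was detected in 0 of 9, 33 of 87 and 21 of 51 members, at 0, 548 and 599 CPM, and in 0 of 7, 9 of 64 and 0 of 19 Pdcd1-low cells. Among neutrophils of those tags 2 of 2922 cells in tag 3 and none in tags 2 and 4 had a molecule. Tag 2 has too few members to read its 0. Foxp3-positive CD4 T cells had it in 2 of 10, 18 of 55 and 7 of 30 cells, so Tox was not limited to members.

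Proliferation genes were called higher for 4 of 8 measured (Aurkb, Tyms, Ube2c, Top2a) and lower for none. Over all 262 genes 6.49% were called higher and 6.87% lower. The median log2 ratio of the 8 was 1.58. Top2a, the topoisomerase of dividing cells, stood at 6430.1, 2092, 2422 and 4002 CPM in members and 1443, 808, 867 and 2401 in Pdcd1-low cells. Tyms, which makes thymidylate for DNA synthesis, stood at 3088, 2008, 952 and 1397 against 481, 269, 184 and 225, and 2810417H13Rik, named Pclaf in GENCODE and outside the list, at 9227, 4058, 2742 and 5389.5 against 1363, 942, 719 and 1201. Without the set-apart cells Tyms and 2810417H13Rik stayed called, and Top2a, Ube2c and Aurkb did not, and tag 2 then had 855 CPM of Top2a on 8 members. When the classes were sorted on thinned counts, Tyms, 2810417H13Rik, Ube2c and Aurkb were all no longer called.

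At least 2 of Mki67, Top2a, Ube2c and Aurkb were detected in 64 members, 7, 4, 29 and 24 in tags 1 to 4, or 70, 44.4, 33.3 and 47.1%. The median depth of these cells was 2009 molecules, against 1144 in the 93 others, and the part of depth in this share was not tested. At 500 molecules Mki67 was in 44 and Top2a in 55 of 154 members, and 31 had both, where independent detection would give 15.7. In tags 2 to 4 these cells carried less Ccl5 than the other members, at 978, 24759 and 10934 CPM against 16052, 44978 and 57726, and less Tigit, at 1589, 3082 and 2381 against 3184, 4891 and 5886. Tag 1, with 7 such cells and 3 others, did not share this order, at 16871 and 16300.5 CPM of Ccl5 and 1846 and 1417 of Tigit.

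Among the genes called between the classes were several outside these lists. Spp1, encoding the secreted matrix protein osteopontin, stood at 7157, 3598, 7829 and 3254 CPM in members and 1283, 538, 1014 and 450.2 in Pdcd1-low cells, and was called higher also without the set-apart cells (mean log2 ratio 2.35). Neutrophils had it in 36.2% of cells and the members in 68.2%. A single member held 41.6, 65.1, 34.0 and 14.7% of Spp1 in tags 1 to 4. The call was lost when the classes were sorted on thinned counts, and Spp1 is also 1 of the 4 tumour or epithelial genes. Lat2, an adaptor of myeloid and B cells, stood at 1054, 3598, 1744 and 1347 against 401, 673, 369 and 225, and the class II gene H2-Eb1 at 2325, 1841, 571 and 1507 against 1202, 0, 55.3 and 375. Neither was called without the set-apart cells. Fas, a death receptor, stood at 363, 41.8, 228 and 119.8 CPM against 641, 808, 701 and 675 and was called lower also without them. That call was lost at a 2-fold limit, on thinned cells and on cells sorted after thinning, and 42.8% of neutrophils had a Fas molecule. Btg1, an antiproliferative gene of resting lymphocytes, stood at 19181, 27445, 24928 and 22746 against 34629, 44555, 44913 and 61084, and Arl4c, a small GTPase gene, at 763, 1297, 1257 and 1537 against 1523, 2827, 5054 and 6003.

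Neutrophil genes moved with the division as well. S100a8, limited by the rule to under 10% of a cell, stood at 5558, 4393, 10426 and 5739 CPM in members and 17796, 13999, 17135 and 13808 in Pdcd1-low cells, and S100a9, Clec4e, Trem1 and Ccr1 were also called lower in members. The summed level of the 8 neutrophil genes on the panel was 6394, 5983, 12437 and 7436 CPM in members and 20601, 17229.8, 23129.7 and 17334 in Pdcd1-low cells. Tnfsf14, Cxcr4, Ccr1, Clec4e, Trem1, S100a8 and S100a9 were no longer called lower without the set-apart cells, and Il6ra then had too few molecules to enter. The part of this background in the other calls was not tested.

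Interferon-response and immediate early genes gave no call between the classes among 4 and 7 measured, with median log2 ratios of -0.38 and -0.47. The 15 measured T cell receptor and lineage genes gave none either, with a median of 0.23. Irf7, a regulator of interferon genes, stood at 1489, 502, 1051 and 1238 CPM in members. Dusp2, a phosphatase induced by T cell activation, stood at 7519.9, 2050.04, 3976 and 3882 CPM against 6333, 6865, 11639 and 11106, with tag 1 the exception to lower levels in members. Without the deepest Pdcd1-low cell that tag had a log2 ratio of 0.02. Of Egr1, a factor induced early by stimulation, the set-apart member held 98.0% in tag 2.

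Within members, 19 of 246 genes were higher in both tags of the anti-PD-1 pool than in both other tags (7.72%) and 6 were lower (2.44%), the nearest tags being at least 1.5-fold apart. Higher genes were thus 76% of the calls, against 54.5% with all cells weighted equally. The pools did not overlap, at any distance, for 97 of the 246 (39.4%). With only 2 tags on each side such separation is common without any difference of pools, so this number supports nothing. The 10 largest ratios were those of Il1a, Arg1, Mmp12, Cxcl1, Cxcl2, Cxcl10, Clec4e, Cd14, Trem1 and Nlrp3, most of them known from myeloid cells. Arg1, encoding arginase 1 of myeloid cells, stood at 36.3, 0, 3557 and 3334 CPM in tags 1 to 4, and 1 member held 74.5% of it in tag 3 and 58.1% in tag 4. Cxcl2, a chemokine that attracts neutrophils, stood at 1162, 1589.8, 12749 and 28475 CPM, with 50.2 and 64.5% of it in 1 member of tags 3 and 4. Cd14, a co-receptor for bacterial lipopolysaccharide, stood at 945, 502, 3107 and 4801 CPM. For Il1a, an alarm cytokine, the levels were 36.3, 83.7, 1059 and 5179.9, and the set-apart members held 95.5% of its molecules.

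Without the set-apart members, 5 of 225 genes were called higher (2.22%) and 14 lower (6.22%). Nod1 and Prf1 were the 2 higher calls in both versions, and Cxcl2 and Clec4e turned to a lower mean in the anti-PD-1 pool, at log2 ratios of -0.47 and -0.40. Cxcl2 was among the genes that chose the set-apart cells, and 11 of the 12 were of tags 3 and 4. Its value without them therefore follows from that choice. The same holds for Arg1 and Cd14, no longer called higher, and for Lyz2, then called lower at a log2 ratio of -4.35. The part of the choice in the other calls, and so in the changed numbers of calls, was not tested. Prf1 stood at 109, 0, 358 and 319 CPM with all members and at 109, 0, 407 and 421 without the set-apart ones, on 3 and 0 molecules in tags 1 and 2. Nod1, an intracellular sensor gene, stood at 145, 142, 354 and 434 CPM on 4 and 2 molecules there. The ratio for Prf1 rests on these few counts.

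Ccl5, Ccl3 and Gimap7 joined the higher calls without the set-apart members. Ccl5 then stood at 16784, 9618, 40827 and 31883 CPM in tags 1 to 4. In tags 1 and 2 a single member held 72.1 and 83.0% of it, and 9 of 10 and 5 of 8 members had a molecule, against 62 of 81 and 37 of 46 in tags 3 and 4. Gimap7, a GTPase gene of lymphocytes, stood at 799, 712, 1407 and 1493 CPM, with no member over 20% of a tag's molecules.

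Tigit and Fth1 were called higher with all members and not without the set-apart ones. Tigit stood at 1780.1, 2092, 4113 and 3403 CPM in tags 1 to 4 and at 1780.1, 2849.8, 4407 and 4072 without them. Tag 1 counted Tigit with 2 targets, whose 34 and 15 molecules in members were added up, and the others with 1. Tag 1 also had the lowest level, and its part in the difference cannot be told apart from that of the reference. Fth1, the ferritin heavy chain, stood at 18963, 16400.3, 44562 and 41210.1 CPM and at 18963, 19592, 32394 and 24391 without them.

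The lower calls rest on few cells of tags 1 and 2. Xcl1, Lmna, Jun, Birc3 and Ybx3 were called lower in both versions and Gata3 with all members alone. Lmna and Jun kept the call under all 13 alternatives, but those that left out a tag or lowered the molecule minimum could not lose it. Xcl1 and Birc3 lost it without the deepest 5% of cells, Birc3 and Ybx3 at a 2-fold limit, and Ybx3 with TMM scaling. Jun, an immediate early factor, stood at 799, 3138, 343 and 249.5 CPM, with 88% of tag 2 in the set-apart member, and at 799, 641, 265 and 312 without it. Of the further calls without the set-apart members, the class II gene H2-Aa stood at 6466, 7125, 79.6 and 516 CPM, with 97.2% of tag 1 and 100% of tag 2 in 1 member each. The member of tag 2 had 1738 molecules and also held all of that tag's Ccl9 and 99.2% of its Xcl1, with 3 molecules of Pdcd1. The member of tag 1 held 98.4% of H2-Eb1 and 89.5% of Lyz2. Ybx3, a cold shock domain factor, stood at 2325, 3206, 1469 and 1479 CPM and was spread over 10 of 10, 7 of 8, 57 of 81 and 34 of 46 members. No T cell receptor, proliferation, costimulation or cytokine receptor gene of the lists was called between pools with all members.

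Within the anti-PD-1 pool, 34 of 236 genes were at least 2-fold higher in tag 4 than in tag 3 (14.4%) and 11 lower (4.66%). Without the set-apart members these were 9 of 210 (4.29%) and 14 (6.67%). Among the genes lower in tag 4 in both versions were Ccr7 and Tcf7 and the NK receptor genes Klra3, Klra6 and Klra21. With all members, Ccr7 was in 10 of 87 members of tag 3 and 8 of 51 of tag 4, and 1 member held 52.3% of it in tag 3. Tcf7 was in 13 and 4 members. Klra6, an inhibitory receptor for class I molecules, stood at 449 CPM in tag 3 and 119.8 in tag 4, in 10 of 87 and 7 of 51 members. Itgae went the other way, at 190.4 and 629 CPM in 9 and 8 members. Within the other pool, 28 of 162 genes were higher in tag 2 than in tag 1 (17.3%) and 25 lower (15.4%), on 9 and 10 cells. Tag 1 was counted against another panel reference than tag 2, so a difference of tags cannot be told apart from one of references. Of the 8 proliferation genes Top2a, Mki67, Aurkb and Mcm4 were among the lower. Without the set-apart member of tag 2 the calls were 13 of 144 (9.03%) and 27 (18.8%), on 8 and 10 cells, and Pcna, Ube2c and Tyms joined those 4.

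Levels in members were also set beside those of regulatory T cells of the same tags, taken as 108 Foxp3-positive CD4 T cells. Ctla4 stood at 21077, 12182, 17679 and 19006 CPM in regulatory T cells of tags 1 to 4 and Tnfrsf9 at 15787, 12769, 22244 and 19492, above the members in each tag. Cxcr6 stood at 209.9, 759, 581 and 324 CPM in them, under every level of the members. Pdcd1, which the rule used, was in 30 of 88 thinned regulatory T cells.

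Markers of other cell types were measured in members over whole lists. The 10 monocyte or macrophage genes on the panel summed to 1889, 2343, 7859.8 and 13055 CPM in tags 1 to 4, with both anti-PD-1 tags highest, and the 8 dendritic cell genes to 9264, 6276, 2765 and 5968, with Flt3 and Il12b at 0. The 8 B cell genes summed to 72.7, 41.8, 168 and 69.9 CPM, with 5 of them at 0, and all 4 gamma delta T cell genes were at 0. Mast cell and basophil genes summed to 182, 31755, 449 and 1278 CPM, and the 4 tumour or epithelial genes, among them Lgals1 that T cells also express, to 62775, 44934, 45118 and 49085. The 10 NK cell genes summed to 21506, 26148, 14372 and 14013 CPM, of which Klrc1 is also a gene of activated CD8 T cells. The 6 genes of CD4 and regulatory T cells summed to 8101, 9413, 7342 and 7016 CPM, with Cd4 at 0 by the rule and Foxp3 at 1 molecule, and the 3 stromal or endothelial genes to 0, 2427, 30.5 and 309. The part of these cells in the differences between pools was not tested beyond the values without the set-apart members.

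Of the 72 genes counted in tags 2 to 4 alone, the 10 highest in members were S100a4, Crip1, Nfkbia, Cd164, Nfkbiz, Cxcl3, Emp1, Slc2a3, AA467197 and Ccrl2. S100a4, a calcium-binding protein of motile and memory T cells, stood at 22885, 29017 and 27806 CPM in members and 14672, 10938 and 15834 in Pdcd1-low cells of tags 2 to 4, and all levels of members were the higher. Nfkbia, the inhibitor of NF-kappa-B, went the other way, at 15354, 12803 and 13364 against 32709.7, 16047 and 18760.3. Crip1, a LIM domain protein gene, at 19622, 10023 and 11937 against 9826, 12579 and 14183, and Cd164, a sialomucin gene, at 5815, 7037 and 7056 against 5384, 6585 and 7054, had no common direction or little distance.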

How the data were processed

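Molecules of a targeted immune panel were counted in single cells with BD Rhapsody from 2 cartridges with 4 sample tags. The deposited values are counts of molecules per cell and target, error-corrected by distribution and assigned to tags. The authors made them with BD's Rhapsody Targeted Analysis Pipeline, version 1.12.1 per the file headers. The submitters' processing notes also list Seurat 3.2.0. Neither an aligner nor a genome build is given in the sources used here. The reference of tag 1 has 397 targets and that of tags 2 to 4 has 468 genes, and the 396 shared genes were used. Of the 397 targets, 392 carry a transcript identifier, all found in GENCODE M21, 389 with the same gene name.

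Members, gene lists (13 of pathways, 11 of cell markers) and comparisons were chosen with earlier results of these data known. No cell was removed beyond the gates, and no doublets were removed. Counts were summed per tag and class and scaled to 1000000. Genes entered with at least 30 molecules. A call needed 1.5-fold in every tag, or between the nearest tags of non-overlapping pools. Within a pool it needed 2-fold. A sum of 0 was set to 3 counts. Named genes were the 20 highest, list genes with at least 30 molecules, the 12 largest called ratios in each direction, up to 10 called genes of each direction between pools, and the 10 highest of tags 2 to 4 alone; others are named where a count or a single cell called for it, after their values were seen. Results of a few genes are not reported here. Intervals are exact (Clopper-Pearson for shares, Poisson for CPM) at 95%. Thinning drew 500 molecules per cell without replacement. Call rules were tested on simulated data. Python 3.11.15, numpy 2.4.6, pandas 2.3.3, scipy 1.17.1 and, for TMM scaling, edgeR 4.0.16 in R 4.3.3 were used. Alternatives were other Pdcd1 and S100a8 limits, scalings, minima, folds, thinning, and leaving out tags, deep cells or set-apart cells.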

Additional observations from a re-analysis of the deposited data

How the results depend on the processing

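Members as percent of all cells stayed higher in the anti-PD-1 pool under every alternative, with ratios from 2.61 without tag 4 to 6.98 without tag 3. The difference in the Pdcd1-positive share of CD8 T cells, 10.8 percentage points, ran from 3.18 without tag 4 to 18.4 without tag 3. Of genes called between classes, 17 higher and 18 lower, a 2-fold limit left 9 and 7, sorting after thinning gave 8 and 9 (5 and 5 of them shared with the original calls), and tags 3 and 4 alone gave 46 and 53. Thinning with the classes kept gave 17 higher and 9 lower calls. TMM scaling gave 21 and 14, or 60% higher against 48.6%. Of genes called between pools, 19 higher and 6 lower, weighting cells equally gave 12 and 10, leaving out the deepest 5% of cells 8 higher, a 2-fold limit 3 lower, and leaving out set-apart cells 5 and 14. Leaving out tag 1, 2, 3 or 4 gave 57, 50, 36 and 34 higher and 37, 29, 13 and 19 lower, since fewer tags have to be apart. The log2 ratio between pools turned to -0.47 for Cxcl2 and -0.40 for Clec4e without set-apart cells. The counts of 9 and 10 members in tags 2 and 1, and single deep cells there, limit every comparison of pools. Leaving out the deepest Pdcd1-low cell of tags 1 and 2 gave 18 and 25 genes called between classes. That setting, sorting after thinning, tags 3 and 4 alone, leaving out set-apart cells and, for genes between pools, leaving out tags were chosen after the data were seen. Classes were compared within each tag. No paired test was made, because no result comes from a test and the tags carry no replicate numbers.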
